A study of Homo sapiens with 18 samples.

Results

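The chemokines described here are 10 genes whose products epithelial cells secrete or display to recruit leukocytes: CXCL1, CXCL2, CXCL3, CXCL5, CXCL8, CXCL10, CXCL11, CCL20, CCL28 and CX3CL1. They were taken by gene name from a table of 19901 genes, and each name was found once. The table holds mRNA sequencing counts from 18 libraries of the head and neck squamous cell carcinoma lines Detroit 562, FaDu and SCC-9, and each line has 3 libraries from untreated cells (control) and 3 from cells given 50 ng/mL hepatocyte growth factor (HGF) for 16 h. Detroit 562 was derived from a metastatic site of a pharyngeal tumour, FaDu from the hypopharynx and SCC-9 from the tongue, so that each line is a single tumour. Detroit 562 and FaDu were grown in MEM-α, whereas SCC-9 was grown in DMEM F12 with hydrocortisone, a glucocorticoid. Medium and line therefore cannot be told apart in comparisons with SCC-9. The record of the whole series gives a longer treatment than the sample records and the methods, and the time in the latter is used here.

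Chemokines are small proteins that bind G protein-coupled receptors on leukocytes and direct their migration. CXCL1, CXCL2, CXCL3, CXCL5 and CXCL8 carry a Glu-Leu-Arg (ELR) motif before their first cysteines and attract neutrophils through CXCR2, and CXCL8 also through CXCR1. CXCL10 and CXCL11 lack this motif, are induced by interferons and attract activated T cells through CXCR3. CCL20 is the ligand of CCR6, CCL28 is a mucosal chemokine that binds CCR10 and CCR3, and CX3CL1 is made as a membrane-bound protein, is shed by ADAM10 and ADAM17 and binds CX3CR1. NF-kB drives transcription of many of these genes in epithelial cells, and HGF acts on such cells through the receptor tyrosine kinase MET.

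The 7 CXC genes lie on chromosome 4 of GRCh38. CXCL8 (chr4:73740506-73743716) and CXCL1 (chr4:73869393-73871242) are on the plus strand, and CXCL5 (chr4:73995642-73998779), CXCL3 (chr4:74036589-74038807), CXCL2 (chr4:74097035-74099293), CXCL10 (chr4:76021117-76023497) and CXCL11 (chr4:76033682-76041415) are on the minus strand. CCL20 (chr2:227805739-227817564), CCL28 (chr5:43376645-43412391) and CX3CL1 (chr16:57372458-57385048) lie elsewhere.

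The promoter sequences of the 7 CXC genes are shown because the members with the highest counts come from this cluster and because all of them hold the same NF-kB motif. RefSeq promoters (GRCh38.p14, 250 bases before to 50 after a start) were found for 9 of the 10 genes, with 2 for CCL28. The kappaB sequence GGAATTTCC, searched on both strands, occurred in the promoters of 7 members and in 0.461% of 35116 promoters of all genes. Capitals mark this motif in either orientation, and in CXCL11 also an AP-1 motif (TGANTCA). In CXCL10 they also mark an interferon response motif, 2 GAAA blocks spaced by 2 bases. The ELR genes are given first, and each line ends at the base before the RefSeq start.
CXCL8 (chr4:73740449-73740568, plus strand): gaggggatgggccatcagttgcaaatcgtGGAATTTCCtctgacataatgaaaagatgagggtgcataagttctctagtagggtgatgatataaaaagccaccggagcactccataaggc
CXCL1 (chr4:73869273-73869392, plus strand): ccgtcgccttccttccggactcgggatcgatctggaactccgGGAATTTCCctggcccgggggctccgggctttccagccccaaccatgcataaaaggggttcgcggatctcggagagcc
CXCL2 (chr4:74099196-74099315, minus strand): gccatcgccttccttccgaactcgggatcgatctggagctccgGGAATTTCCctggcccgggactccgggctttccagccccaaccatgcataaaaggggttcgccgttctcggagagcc
CXCL3 (chr4:74038690-74038809, minus strand): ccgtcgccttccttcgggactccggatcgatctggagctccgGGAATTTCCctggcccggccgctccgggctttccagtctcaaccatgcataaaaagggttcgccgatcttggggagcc
CXCL5 (chr4:73998678-73998797, minus strand): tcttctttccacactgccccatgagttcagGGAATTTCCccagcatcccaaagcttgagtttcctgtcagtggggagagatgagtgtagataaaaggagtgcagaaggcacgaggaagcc
CXCL10 (chr4:76023498-76023727, minus strand): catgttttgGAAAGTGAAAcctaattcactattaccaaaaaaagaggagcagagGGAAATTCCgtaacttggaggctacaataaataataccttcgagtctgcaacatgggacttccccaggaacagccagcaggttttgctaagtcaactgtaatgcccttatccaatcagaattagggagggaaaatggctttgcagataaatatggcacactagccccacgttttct
CXCL11 (chr4:76036071-76036190, minus strand): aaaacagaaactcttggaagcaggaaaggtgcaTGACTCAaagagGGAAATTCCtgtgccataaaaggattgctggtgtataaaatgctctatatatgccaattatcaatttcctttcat

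The kappaB match began 77 to 91 bases before the start in the ELR genes, 75 before it in CXCL11 and 176 before it in CXCL10. CXCL1 and CXCL2 shared 93.39% of aligned bases in these windows, CXCL1 and CXCL3 shared 90.83% and CXCL2 and CXCL3 shared 88.43%. Pairs that involved CXCL5 or CXCL8 shared 43.61% to 51.85%. An AP-1 match lay in the promoters of CXCL11 and CXCL8, where it began 137 bases before the start and outside the printed window, against 7.71% of all promoters. The interferon response motif matched in CXCL10 alone among the members and in 3.57% of all promoters. The motifs were chosen after the expression values were known, and a match is no evidence of binding. The RefSeq starts of CXCL2, CXCL3, CXCL5, CXCL8 and CXCL11 lie inside the longer gene extents that were counted.

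Total counts ranged from 35304770 to 44003970 per library, and levels between libraries are given as normalized counts, which are counts scaled to a common library size. All 8 squamous markers were detected in every group. The leukocyte marker PTPRC had 0 to 3 counts in every library and FCGR3B had none, while the summed level of the 8 leukocyte markers ran from 817 to 2684 normalized counts and came mostly from CD68. Sums over 7 fibroblast markers ranged from 3105 to 3981 in control SCC-9, from 1208 to 2182 in control Detroit 562 and from 170 to 275 in control FaDu. The 4 endothelial markers summed to 25.6 to 333. The libraries were made from cultures of the carcinoma lines. These sums are therefore levels of marker genes in those cultures, and they were not read as numbers of leukocytes, fibroblasts or endothelial cells. In bulk libraries, fewer cells of a type and less RNA per cell cannot be told apart.

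**Figure D1:**
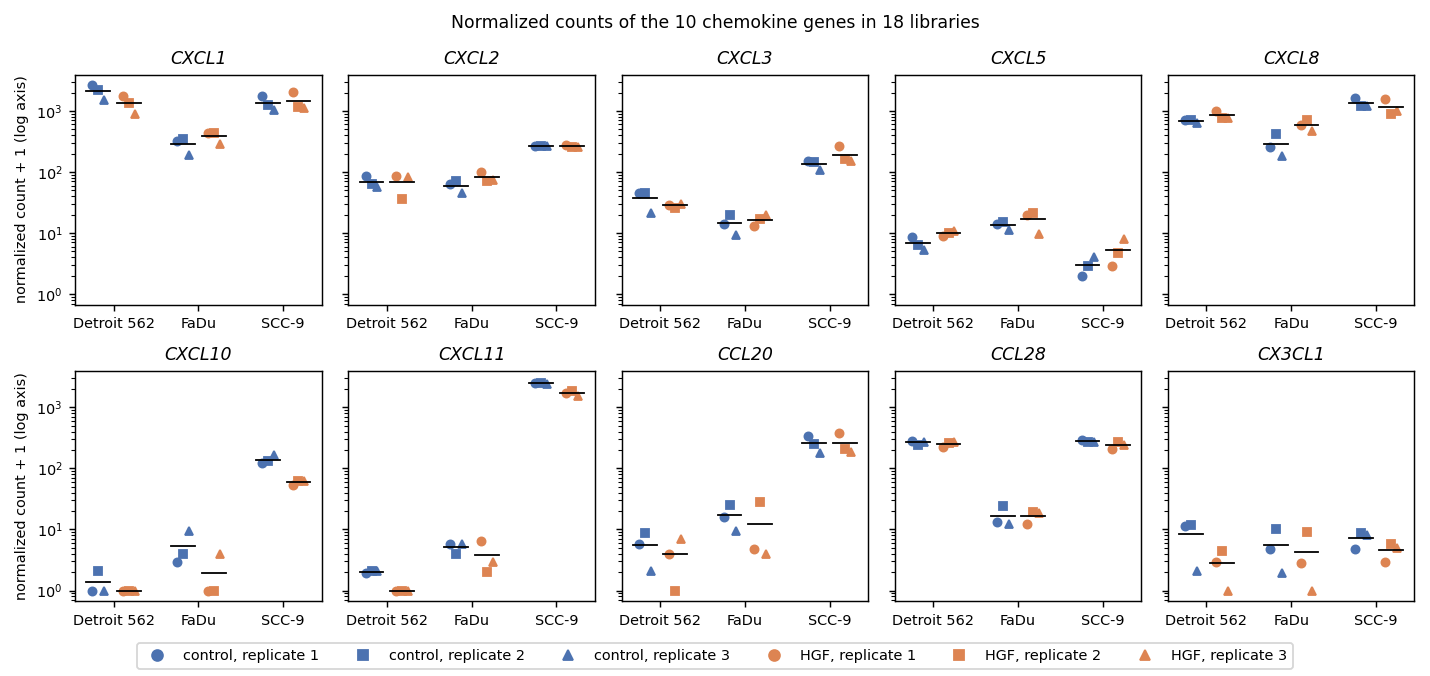
Normalized counts plus 1 on a log axis for the 10 chemokine genes in all 18 libraries, with control libraries in blue, HGF libraries in orange, a marker shape for each replicate number and a bar at the group mean. CXCL11 lay between 1521 and 2541 normalized counts in SCC-9 and at or below 5.56 in the other lines, whereas CXCL1 and CXCL8 were present in all libraries.

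The 3 lines differed first in which chemokines they expressed. Detroit 562 was dominated by CXCL1, FaDu by CXCL1 and CXCL8 at lower levels, and SCC-9 by CXCL11, CXCL1 and CXCL8 together with CCL20, CXCL2, CXCL3 and CXCL10. To compare genes within a line, normalized counts were divided by the length of the canonical transcript in kb, although reads were counted over whole gene extents. In control Detroit 562, CXCL1 stood at 1803 ± 483 per kb (SD, n = 3), CXCL8 at 418 ± 28.8, CCL28 at 84.8 ± 8.01, CXCL2 at 60.6 ± 13.9 and CXCL3 at 33.6 ± 12.6. The other 5 members stood below 6 per kb.

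In control FaDu, CXCL1 stood at 243 ± 73 per kb and CXCL8 at 174 ± 72.7, which overlapped. CXCL2 followed at 52.4 ± 11.6, below CXCL8 and above CCL20 in every library, and CCL20 at 19.1 ± 9.42 overlapped CXCL3 at 12.7 ± 4.95. In control SCC-9, CXCL11 stood at 1678 ± 48.6 per kb, above CXCL1 at 1148 ± 325 and CXCL8 at 815 ± 145. The 3 libraries of CXCL11 all lay above those of CXCL1, while the ranges of CXCL1 and CXCL8 overlapped. CCL20 at 307 ± 92 and CXCL2, with libraries at 234 to 236, did not separate either, nor did CXCL3 at 124 ± 20.2 and CXCL10 at 118 ± 18.5, and CCL28 stood at 88.6 ± 2.79. This order depended on the length used. With all exons of the gene as its length, mean CXCL2 (187 per kb) stood above CCL20 (161). Mean CXCL10 (118) then stood above CCL28 (61.2) and CXCL3 (59.9).

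**Figure D2:**
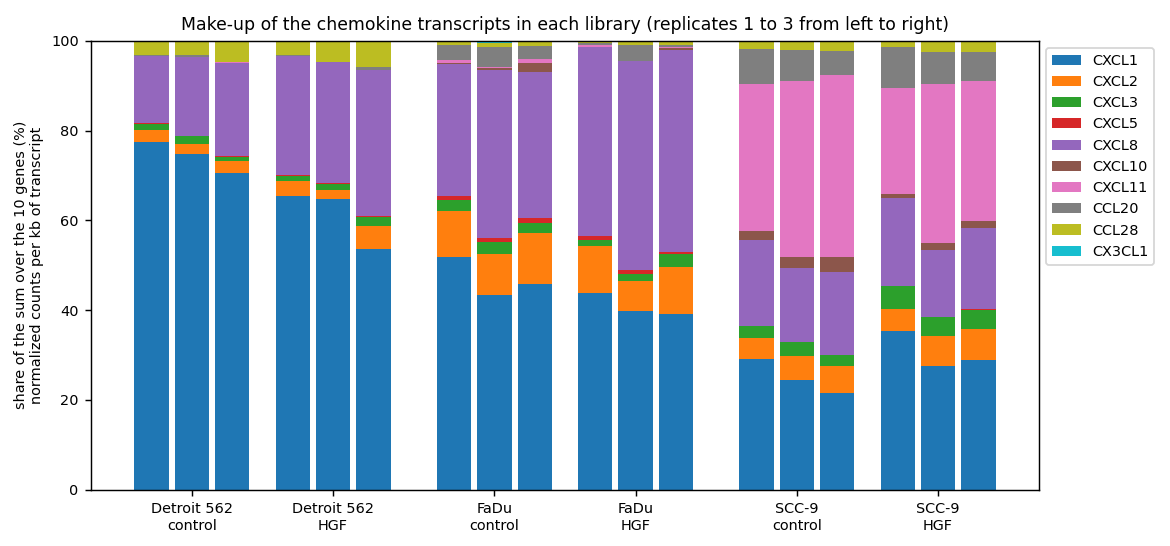
Share of each chemokine in the sum over the 10 genes, in percent of normalized counts per kb of canonical transcript, with 1 bar per library and replicates 1 to 3 from left to right in each group. CXCL1 made up 70.4% to 77.5% in control Detroit 562, while CXCL11 made up 32.8% to 40.5% in control SCC-9.

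Of the 10 genes, 9 had enough counts to be tested, and CX3CL1, with 0 to 11 counts per library, had not. Differences between untreated lines were called at an adjusted p under 0.1 (edgeR quasi-likelihood test, adjusted over all 15475 genes tested) together with a log2 difference of 0.4 or more in size. Between untreated Detroit 562 and FaDu, 8 of the 9 were called, 4 of them higher in Detroit 562, against 61% of all tested genes called and 31.2% called higher in Detroit 562. Between Detroit 562 and SCC-9, 8 were called, 2 of them higher in Detroit 562, against 65.4% called and 31.4% called higher in Detroit 562. Between FaDu and SCC-9 all 9 were called, 8 of them higher in SCC-9, against 64.2% called and 33.5% called higher in SCC-9. The 3 comparisons share their control libraries, and the shares of the members have to be read against these high shares of all genes.

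CXCL1, the main ELR chemokine of Detroit 562, had 2818, 1996 and 1416 counts in its control libraries, against 1846, 1325 and 1000 in control SCC-9 and 341, 343 and 199 in control FaDu. The FaDu libraries lay below all others, while Detroit 562 and SCC-9 overlapped. On the normalized log2 scale CXCL1 was 2.89 higher in Detroit 562 than in FaDu (SE 0.327, adjusted p = 5.07e-07) and 2.24 lower in FaDu than in SCC-9 (log2 difference -2.24, SE 0.323, adjusted p = 7.92e-06). The log2 difference of 0.65 from Detroit 562 to SCC-9 (SE 0.297, adjusted p = 0.0565) lost its call when Detroit 562 control 1 or 2 or SCC-9 control 2 or 3 was left out (adjusted p = 0.221, 0.105, 0.130 and 0.196).

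CXCL8, the ELR chemokine that binds both CXCR1 and CXCR2, had 1687, 1250 and 1191 counts in control SCC-9, 761, 654 and 587 in Detroit 562 and 269, 416 and 197 in FaDu. The lines did not overlap, and SCC-9 was highest and FaDu lowest. The log2 difference was 1.27 from Detroit 562 to FaDu (SE 0.264, adjusted p = 0.000377), -0.96 from Detroit 562 to SCC-9 (SE 0.251, adjusted p = 0.00233) and -2.23 from FaDu to SCC-9 (SE 0.265, adjusted p = 8.73e-07).

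CXCL2 and CXCL3, the close relatives of CXCL1, were highest in SCC-9. CXCL2 had 275, 275 and 256 counts in control SCC-9, 90, 58 and 51 in Detroit 562 and 65, 69 and 47 in FaDu. It was lower than in SCC-9 by a log2 difference of -1.95 in Detroit 562 (adjusted p = 1.98e-06) and of -2.16 in FaDu (adjusted p = 6.76e-07), and its log2 difference of 0.22 between Detroit 562 and FaDu (SE 0.266, adjusted p = 0.472) was not called. CXCL3 had 155, 150 and 106 counts in control SCC-9, 47, 40 and 19 in Detroit 562 and 14, 19 and 9 in FaDu. All 3 of its differences were called, with log2 values of -1.87 from Detroit 562 to SCC-9, -3.29 from FaDu to SCC-9 and 1.41 from Detroit 562 to FaDu. CXCL5 went the other way at few counts, with 14, 14 and 11 in control FaDu, 8, 5 and 4 in Detroit 562 and 1, 2 and 3 in SCC-9, and was called in all 3 comparisons, between Detroit 562 and SCC-9 no longer without Detroit 562 control 1 (adjusted p = 0.101).

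The interferon-inducible pair was nearly confined to SCC-9 among the 3 lines. CXCL11 had 2614, 2674 and 2356 counts in control SCC-9, 5, 3 and 5 in FaDu and 1, 1 and 1 in Detroit 562. CXCL10 had 127, 138 and 160 counts in control SCC-9, 2, 3 and 9 in FaDu and 0, 1 and 0 in Detroit 562. Their summed control counts gave a ratio of SCC-9 to Detroit 562 of 2408 for CXCL11 (exact 95% interval 824 to 11682, from 7644 and 3 counts) and of 402 for CXCL10 (71.7 to 15904, from 425 and 1 counts), intervals that cover counting error only. The log2 difference from FaDu to SCC-9 was -9.17 for CXCL11 (SE 0.194, adjusted p = 1.48e-14) and -4.91 for CXCL10 (SE 0.437, adjusted p = 7.97e-08).

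Since reads were counted over whole gene extents, the CXCL11 counts could include reads of RPL36P8, a processed pseudogene of a ribosomal protein gene on the same strand inside CXCL11 (chr4:76036750-76037064). Its parent RPL36 had 7320 to 17998 counts in every library, while CXCL11 had 0 to 6 in all libraries of Detroit 562 and FaDu. CXCL10 and CXCL11 also overlap ART3 on the other strand, which had 0 to 35 counts. Of the 75-base windows of its transcript, CXCL1 shared 3 of 1100 with another member, CXCL2 26 of 1041 and CXCL3 23 of 1001, and the other 7 members shared none.

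CCL20, which attracts CCR6-bearing dendritic and T cells, had 349, 267 and 177 counts in control SCC-9, 16, 24 and 9 in FaDu and 5, 7 and 1 in Detroit 562. The log2 difference was -5.80 from Detroit 562 to SCC-9 (SE 0.661, adjusted p = 4.73e-07) and -4.01 from FaDu to SCC-9 (SE 0.544, adjusted p = 4.09e-06). The difference of -1.79 from Detroit 562 to FaDu (SE 0.854, adjusted p = 0.0693) was not called without any single library of Detroit 562 control 1 or 3 or FaDu control 1 or 2 (adjusted p = 0.125, 0.195, 0.102 and 0.222). CCL28 had 302, 218 and 254 counts in control Detroit 562 and 300, 285 and 268 in SCC-9, which overlapped, and 13, 23 and 12 in FaDu. Its log2 difference was 4.09 from Detroit 562 to FaDu (SE 0.215, adjusted p = 3.48e-11) and -0.06 from Detroit 562 to SCC-9 (SE 0.163, adjusted p = 0.735).

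HGF was then compared with control in each line. No member was called in any line by the edgeR fit without a term for the replicate, but libraries with the same replicate number deviated together, and once the replicate number entered the fit as a block, some members were called in every line. In that blocked fit CXCL1 fell in Detroit 562, CXCL8 and CXCL1 rose in FaDu, and CXCL10 and CXCL11 fell in SCC-9. In Detroit 562 the unblocked fit called 0 of 9 members (2 at an unadjusted p under 0.05) against 17.9% of all tested genes, and DESeq2 called 0 with its fold change prior (against 18.3%) and 0 without it (18.2%). In FaDu it called 0 (2 at an unadjusted p under 0.05) against 0.0258%, and DESeq2 called 1 with its prior (against 0.483%) and 1 without it (0.446%). In SCC-9 it called 0 (2 at an unadjusted p under 0.05) against 0%, and DESeq2 called 2 with its prior (against 0.133%) and 1 without it (0.152%). The blocked fit called 2 members of Detroit 562 against 21.5% of all genes, 3 of FaDu against 5.6% and 2 of SCC-9 against 1.97%.

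**Figure D3:**
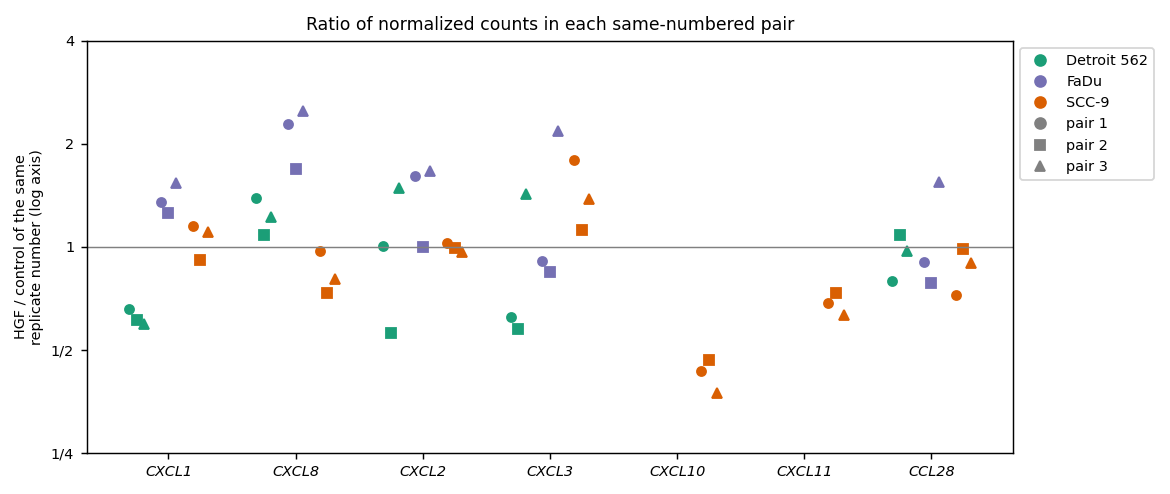
Ratio of normalized counts, HGF to control of the same replicate number, on a log axis for 7 chemokines, with colours for cell lines and shapes for pairs, and CXCL10 and CXCL11 drawn for SCC-9 only because their counts in the other lines were 9 or lower. CXCL1 lay at 0.594 to 0.657 in the pairs of Detroit 562 and at 1.25 to 1.53 in those of FaDu, and CXCL8 at 1.69 to 2.49 in FaDu.

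In Detroit 562, CXCL1 had 2656, 2168 and 1525 normalized counts in control libraries 1 to 3 and 1745, 1321 and 905 in HGF libraries 1 to 3. The groups overlapped, but HGF was lower in 3 of 3 pairs, with ratios of 0.657, 0.609 and 0.594. Its log2 change was -0.68 (SE 0.298, adjusted p = 0.107) without and -0.69 (SE 0.0674, adjusted p = 1.89e-06) with the replicate block. Without the block it was called when HGF library 1 was left out (-0.93, adjusted p = 0.0548) or control library 3 (-0.86, adjusted p = 0.0479). Leaving out any other library of the line gave no call. The change then ranged up to -0.46 and the adjusted p up to 0.363. The fibroblast marker sum also went from 1208 to 2182 in control down to 613 to 1111 with HGF, and the leukocyte sum from 817 to 1628 up to 1497 to 2347. The endothelial sum went from 48.5 to 120 down to 25.6 to 46.5 without overlap, and the squamous sum from 121823 to 178543 down to 81878 to 132968. The part of these markers in the result was not tested.

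CXCL8 did not follow CXCL1 in Detroit 562. It had 717, 710 and 632 normalized counts in the control libraries and 994, 770 and 770 with HGF, so that all HGF libraries lay above all control libraries. Groups that do not overlap were found for 38.2% of all tested genes in this line. The log2 change was 0.30 (SE 0.252, adjusted p = 0.409), and with the block 0.30 (SE 0.101, adjusted p = 0.0263), which is under the minimum size for a call. CXCL2 (log2 change -0.01), CXCL3 (-0.41), CXCL5 (0.60), CCL20 (-0.58) and CCL28 (-0.09) were not called with or without the block. The second blocked call, CXCL11, rested on 1, 1 and 1 counts in the control libraries and 0, 0 and 0 with HGF (adjusted p = 0.0895), and no fold is given. CX3CL1 had 11, 10 and 1 counts in the control libraries and 2, 3 and 0 with HGF.

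In FaDu, CXCL8 had 255, 418 and 185 normalized counts in the control libraries and 585, 706 and 460 with HGF. The groups did not overlap, as for 9.41% of all tested genes in this line, and the pair ratios were 2.29, 1.69 and 2.49. Its log2 change was 1.03 (SE 0.263, adjusted p = 0.388) without the block, although the unadjusted p was 0.00119. With the block it was 1.06 (SE 0.112, adjusted p = 6.74e-05), and DESeq2 called it without the block, with a log2 change of 1.02 (adjusted p = 0.0229) with and 1.04 (adjusted p = 0.0243) without its prior. In the edgeR fit without the block, leaving out 1 library at a time gave 0.80 to 1.41 and no call (adjusted p = 0.176 to 0.979).

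CXCL1 had 324, 344 and 187 normalized counts in control FaDu and 437, 431 and 286 with HGF. The groups overlapped, and HGF was higher in 3 of 3 pairs, by 1.35, 1.25 and 1.53 times. The log2 change was 0.43 (SE 0.325, adjusted p = 0.711) and with the block 0.44 (SE 0.0857, adjusted p = 0.00407). CXCL2, with a log2 change of 0.47, had ratios of 1.61, 1.00 and 1.67 and was not called with the block (adjusted p = 0.152). The remaining blocked call, CXCL10, rested on 2, 3 and 9 counts in the control libraries and 0, 0 and 3 with HGF (adjusted p = 0.0949). CXCL3 (0.19), CXCL5 (0.33), CXCL11 (-0.51), CCL20 (-0.51) and CCL28 (0.00) were not called in either fit. The leukocyte marker sum went from 879 to 1378 in control up to 1384 to 1595 with HGF, almost all of it CD68. The squamous sum went from 285500 to 440119 in control to 183659 to 381518 with HGF, the fibroblast sum from 170 to 275 to 144 to 193 and the endothelial sum from 102 to 333 to 62.9 to 197. The part of these markers in the results was not tested.

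In SCC-9, both interferon-inducible chemokines were lower with HGF in every pair. CXCL11 had 2501, 2541 and 2401 normalized counts in the control libraries and 1709, 1862 and 1521 with HGF. CXCL10 had 121, 131 and 163 in control and 52.6, 61.4 and 60.9 with HGF. Neither pair of groups overlapped, and such groups were found for 17.4% of all tested genes in this line.

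The ratios of the pairs were 0.683, 0.733 and 0.633 for CXCL11 and 0.433, 0.468 and 0.373 for CXCL10. The log2 change of CXCL11 was -0.55 (SE 0.108, adjusted p = 0.383, unadjusted p = 0.000157) without and -0.55 (SE 0.0647, adjusted p = 0.00107) with the block. For CXCL10 it was -1.25 (SE 0.317, adjusted p = 0.664, unadjusted p = 0.00141) without and -1.24 (SE 0.179, adjusted p = 0.00314) with the block. DESeq2 called CXCL11 with and without its prior (adjusted p = 0.00154 and 0.00136) and CXCL10 with its prior (adjusted p = 0.0522).

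The ELR chemokines of SCC-9 were not called in either fit. CXCL1 had 1766, 1259 and 1019 normalized counts in the control libraries and 2026, 1149 and 1122 with HGF (log2 change 0.09, SE 0.298, adjusted p = 1). CXCL8 had 1614, 1188 and 1214 in control and 1573, 873 and 979 with HGF (log2 change -0.23, SE 0.247, adjusted p = 1), and was lower in 3 of 3 pairs. With the block CXCL8 stood at -0.26 (adjusted p = 0.179). CXCL3, at 148, 143 and 108 in control and 267, 160 and 149 with HGF, did not overlap between groups, and its log2 change was 0.53 (SE 0.262, adjusted p = 1) without and 0.50 (SE 0.176, adjusted p = 0.155) with the block. CXCL2 (-0.01), CXCL5 (1.05, on 1 to 7 counts), CCL20 (-0.01) and CCL28 (-0.21) were not called. The leukocyte marker sum was 2563 to 2653 in control and 2618 to 2684 with HGF, and the squamous sum 312141 to 401135 and 314080 to 380588. The fibroblast sum went from 3105 to 3981 down to 2421 to 3257, with lower levels in 3 of 3 pairs for COL1A1 (ratios 0.782, 0.820 and 0.795) and COL1A2 (0.782, 0.803 and 0.693), and the endothelial sum from 40.8 to 66.5 down to 36.3 to 47.8. The part of these markers in the fall of CXCL10 and CXCL11 was not tested.

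CX3CL1 was lower with HGF in 3 of 3 pairs in each line, but its counts were too few for the filter, and in FaDu they were 4, 9 and 1 in control and 2, 8 and 0 with HGF. Fitted without the filter it was not called in Detroit 562, FaDu or SCC-9 (adjusted p = 0.187, 0.939 and 1).

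**Figure D4:**
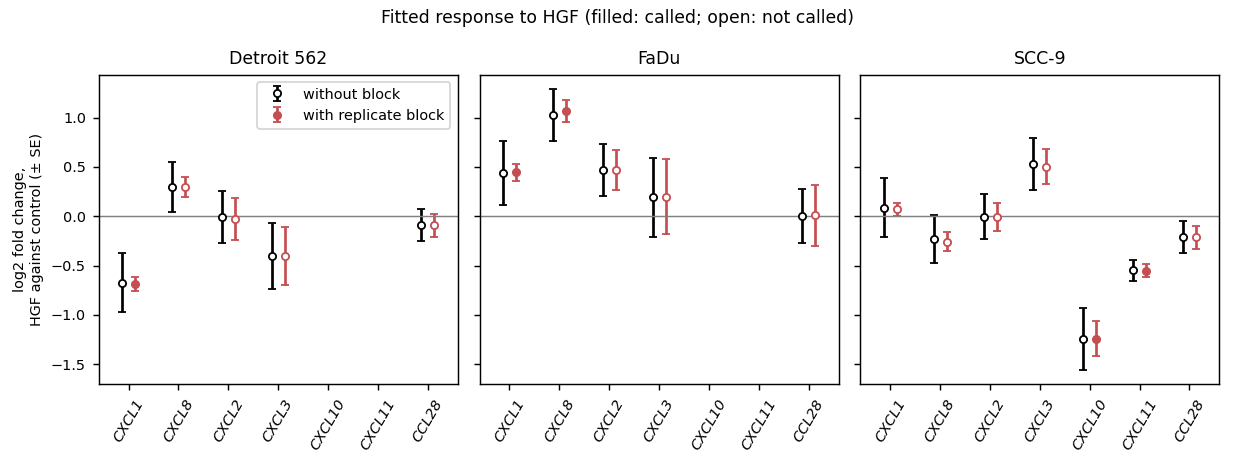
Fitted log2 change with HGF and its standard error for 7 chemokines in the 3 lines, in black without and in red with the replicate block, with filled points for called changes and CXCL10 and CXCL11 drawn for SCC-9 only. Estimates were close in both fits, while the standard error of CXCL1 in Detroit 562 was 0.298 without and 0.0674 with the block.

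The difference of the HGF response between lines was tested as its own contrast, at an adjusted p under 0.1. These contrasts share libraries of a line. Without the block 0 members were called between any pair of lines, against 0.239% of all genes for Detroit 562 and FaDu, 0.924% for Detroit 562 and SCC-9 and 0% for FaDu and SCC-9. Each contrast had 1 member at an unadjusted p under 0.05, and DESeq2 without its prior also called 0, against 1.82%, 4.72% and 0.0259% of all genes. With the block, 2, 3 and 1 members were called in these contrasts, against 19.1%, 26.9% and 1.32% of all genes.

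The CXCL1 response of Detroit 562 was below that of FaDu by a log2 difference of -1.11 (SE 0.441, adjusted p = 0.366) without and -1.13 (SE 0.109, adjusted p = 6.44e-05) with the block. It was below that of SCC-9 by -0.76 (SE 0.421, adjusted p = 0.393) and with the block by -0.76 (SE 0.0954, adjusted p = 0.000167). The CXCL8 response of FaDu exceeded that of SCC-9 by a log2 difference of 1.26 (SE 0.361, adjusted p = 1.00), and with the block by 1.32 (SE 0.147, adjusted p = 0.00195).

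For CXCL8 the response of Detroit 562 differed from that of FaDu by -0.73 (SE 0.364, adjusted p = 0.454) and with the block by -0.77 (SE 0.151, adjusted p = 0.0053). From SCC-9 it differed by 0.53 (SE 0.353, adjusted p = 0.489) and with the block by 0.55 (SE 0.138, adjusted p = 0.0127). The CXCL3 response of Detroit 562 was below that of SCC-9 by -0.94 (SE 0.424, adjusted p = 0.310) and with the block by -0.91 (SE 0.340, adjusted p = 0.0766). Without the block this contrast was called when Detroit 562 control 3 was left out (-1.21, adjusted p = 0.0938). It was not called without any other single library, with values up to -0.62 and adjusted p up to 0.623.

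CXCL8 and CXCL1 share a receptor, and their counts can be compared within a library without any scaling between libraries. This ratio was chosen after the values had been seen, and since the transcripts differ in length only its change is read. In Detroit 562 there were 0.270, 0.328 and 0.415 CXCL8 counts per CXCL1 count in control and 0.570, 0.582 and 0.851 with HGF. In FaDu there were 0.789, 1.21 and 0.990 in control and 1.34, 1.64 and 1.61 with HGF. Both lines thus held more CXCL8 per CXCL1 with HGF in every library.

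In SCC-9 the ratio was 0.914, 0.943 and 1.19 in control and 0.776, 0.760 and 0.872 with HGF, so that all HGF libraries lay below all control libraries. The change in the mean of the log2 ratios, HGF minus control, came to 0.98 for Detroit 562, 0.63 for FaDu and -0.33 for SCC-9. A two-sided exact permutation test gave p = 0.1 in each line, the smallest p that 3 libraries against 3 allow.

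**Figure D5:**
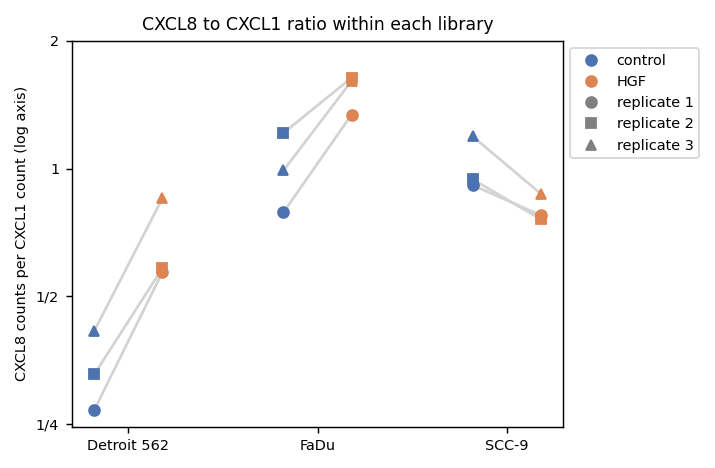
CXCL8 counts per CXCL1 count in each of the 18 libraries on a log axis, control in blue and HGF in orange, with grey lines joining libraries of the same replicate number. Detroit 562 had a mean of 0.337 in control and 0.668 with HGF, FaDu of 0.997 and 1.53, and SCC-9 of 1.02 and 0.803.

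Per kb of transcript, CXCL1 remained the leading member of HGF-treated Detroit 562 at 1128 ± 358 (SD, n = 3), with CXCL8 at 514.5 ± 78.9. Its share of the sum over the 10 genes was 74.2% ± 3.55 in control and 61.3% ± 6.62 with HGF, and that of CXCL8 was 17.8% ± 2.97 and 28.8% ± 3.37. In HGF-treated FaDu, CXCL8 at 356 ± 74.7 per kb and CXCL1 at 328 ± 72.7 overlapped, and their order turned when all exons of the gene were taken as its length. In HGF-treated SCC-9, CXCL1 at 1220 ± 438 and CXCL11 at 1148 ± 115 overlapped as well, and the share of CXCL11 was 37.5% ± 4.08 in control and 30.1% ± 6.03 with HGF. The sum over the 10 genes was 1844 to 2920 per kb in control Detroit 562 and 1437 to 2274 with HGF. FaDu spanned 348 to 677 and 624 to 924, and SCC-9 spanned 4012 to 5149 and 3298 to 4891, so that the groups overlapped in every line. Within pairs of the same replicate number, the sum was lower with HGF in 3 of 3 pairs of Detroit 562 and of SCC-9 and higher in 3 of 3 pairs of FaDu, and no test was made of it.

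The receptors of the members were little expressed. CXCR1 had 0 to 5 counts per library, CXCR3 0 to 3 and CX3CR1 0 to 2, and CCR6 had 0 in every library of Detroit 562 and 2 to 20 in the other lines. CXCR2, the shared receptor of the ELR chemokines, had 137, 103 and 62 counts in control Detroit 562 and 44, 49 and 16 with HGF. FaDu held 95, 99 and 44 in control and 41, 50 and 28 with HGF, and SCC-9 had 0 to 3. It fell by 1.37 on the log2 scale in Detroit 562 (SE 0.376, adjusted p = 0.0157), and in FaDu its log2 change was -0.98 with the block (SE 0.195, adjusted p = 0.00474).

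Counts over the lists of related genes that follow are from the fit without the block unless it is named, and those in Detroit 562 have to be read against the 17.9% of all tested genes called there, or 21.5% with the block. Blocked calls in the other lines have to be read against 5.6% of all tested genes in FaDu and 1.97% in SCC-9. Of 22 chemokine receptors, 7 were tested. In Detroit 562, 1 rose, CCR10 (log2 change 1.14, adjusted p = 0.0878), and 4 fell, CXCR2, CCR3 (-1.42, adjusted p = 0.0335) and the scavenging receptors ACKR3 (-1.11, adjusted p = 0.00145) and ACKR2 (-2.28, adjusted p = 0.0100). Their median log2 change was -1.11, against -0.01 over all tested genes. CCR10, CCR3 and ACKR2 rested on at most 32 counts per library. In FaDu and SCC-9 none was called without the block, and with it CCR3 (-0.91, adjusted p = 0.0221) was called beside CXCR2 in FaDu.

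Among 34 other chemokines, 10 were tested, and in Detroit 562 without the block none was called higher and 2 were called lower, close to the 17.9% of all genes. CXCL6, the ELR chemokine encoded in the same cluster, had 132, 113 and 94 counts in the control libraries and 90, 70 and 43 with HGF (log2 change -0.65, adjusted p = 0.0901), and 0 in every library of FaDu and SCC-9. XCL1 fell by 0.65 in the fit (adjusted p = 0.0624), but its groups overlapped and its pair ratios were 1.08, 0.511 and 0.411. With the block 1 was called higher and 4 lower in Detroit 562. These were CXCL6 and XCL1, CXCL17 (log2 change -0.51, adjusted p = 0.00685), CXCL12 (-0.62, adjusted p = 0.0564) and, upward, CCL27 on 0 to 6 counts per library. In FaDu 2 were called lower with the block, CCL5 (-0.86, adjusted p = 0.0123) and CXCL17 (adjusted p = 0.0809) on 1 to 12 counts, and in SCC-9 none was called in either fit. CXCL9, the third interferon-inducible ligand of CXCR3, had 0 to 4 counts in every library, also in SCC-9 where CXCL10 and CXCL11 were expressed. The median log2 change of the 10 came to -0.61 for Detroit 562, -0.18 for FaDu and -0.40 for SCC-9.

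Among 11 genes of NF-kB subunits and feedback, 2 rose and 1 fell in Detroit 562, with a median log2 change of 0.13. TNFAIP3, a deubiquitinase that restrains NF-kB, rose by 1.38 on the log2 scale (SE 0.364, adjusted p = 0.0127), and the subunit RELB rose by 0.59 (adjusted p = 0.0844). For both genes the groups overlapped, and HGF was higher in 3 of 3 pairs. NFKBIZ, a nuclear cofactor of NF-kB at a subset of its target genes, had 1882, 1372 and 1500 counts in the control libraries and 914, 793 and 769 with HGF, and fell by 0.83 (SE 0.113, adjusted p = 0.000366). Its response in Detroit 562 was below that in FaDu by a log2 difference of -0.97 (SE 0.165, adjusted p = 0.0333) and below that in SCC-9 by -0.70 (SE 0.160, adjusted p = 0.0809), both without the block. In the other lines none was called without the block. With it, TNFAIP3 (0.62, adjusted p = 0.00336) was called in FaDu and BIRC3 (-0.59, adjusted p = 0.00229) in SCC-9.

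Among 12 interferon signalling genes, 0 were called higher and 3 lower in Detroit 562 without the block, against 17.9% of all genes called, with a median log2 change of -0.18. These were the transcription factors IRF1 (pair ratios 0.485, 0.533 and 0.473, adjusted p = 0.000653) and STAT2 (-0.54, adjusted p = 0.00345) and the receptor chain IFNGR1 (-0.47, adjusted p = 0.0163). With the block 4 were called lower, against 21.5%, the fourth being IRF9 (-0.41, adjusted p = 0.00283). In SCC-9, where CXCL10 and CXCL11 fell with the block, none of the 12 was called with or without it, with a median log2 change of -0.09. IRF1 had 2023, 2105 and 2101 counts in control SCC-9 and 1582, 1789 and 1613 with HGF.

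Among 9 cytokine inputs of chemokine genes, 2 rose and 2 fell in Detroit 562. IL1A had 35, 45 and 34 counts in the control libraries and 117, 58 and 209 with HGF (log2 change 1.87, adjusted p = 0.0106), and IL1B rose by 1.44 (adjusted p = 0.0338) on 6 to 26 counts. The receptor chains IL1R1 (-1.14, adjusted p = 0.0010) and IL17RC (-0.75, adjusted p = 0.00426) fell. IL1A in FaDu (0.47, adjusted p = 0.0208) and TNF in SCC-9 (-0.63, adjusted p = 0.0899) were called with the block alone.

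Many chemokine mRNAs carry AU-rich elements, and of 7 genes that act on such mRNAs 2 fell in Detroit 562. ZFP36L2 had 14739, 8277 and 6440 counts in the control libraries and 6376, 4379 and 3206 with HGF (log2 change -0.97, adjusted p = 0.00312), and ZC3H12A, an endonuclease, fell by 0.49 (adjusted p = 0.0402). ZC3H12A was also called in SCC-9 with the block (-0.44, adjusted p = 0.00328). Of the 3 proteases, ADAM10 (3263 to 5667 counts) and ADAM17 (1101 to 2548 counts) were not called in any line, and DPP4, which trims CXCL10 and CXCL11, was called in Detroit 562 (log2 change 1.31, adjusted p = 0.0680) on 2 to 7 counts.

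For each tested member the genes with the most similar profile over the 6 group means were found by the root mean square distance of centred log2 values. The nearest was ZFP36L2 for CXCL1 (0.173), SIPA1L1 for CXCL2 (0.103), FYB1 for CXCL3 (0.179), RPH3A for CXCL5 (0.126) and CNDP1 for CXCL8 (0.223). It was IP6K3 for CXCL10 (0.298), SPARC for CXCL11 (0.360), AC092835.2 for CCL20 (0.197) and GRAP2 for CCL28 (0.141). The second nearest were KPNA7 for CXCL1 (0.200), C11orf96 for CXCL2 (0.113), TXNIP for CXCL3 (0.187), PLAU for CXCL5 (0.160), RP11-889L3.3 for CXCL8 (0.232), FAP for CXCL11 (0.365), NHLH2 for CCL20 (0.223) and COCH for CCL28 (0.180). For CXCL10 it was another member, CCL20 (0.397). With 6 group means, these distances describe the pattern over lines and treatment only.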

How the data were processed

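The deposited values are raw counts of reads per gene, as the authors made them from single-end reads of stranded mRNA libraries. The authors trimmed reads with Cutadapt, aligned them with STAR 2.5.2b to GRCh38 with GENCODE 28 and counted them over whole gene extents on the gene's strand with bedtools, so that intronic reads and reads shared by overlapping genes were included. The tools used here were R 4.3.3, edgeR 4.0.16 and DESeq2 1.42.0. After filterByExpr on the 6 groups and TMM normalization, a quasi-likelihood model was fitted over all 18 libraries, with a mean for each treatment in each line, and p values were adjusted by the Benjamini-Hochberg method over 15475 genes. The code was tested on simulated counts. Alternatives were the replicate block, DESeq2 with and without its prior, DESeq2 size factors, no filter, at least 50 counts in 3 libraries, lines fitted alone, a stricter threshold and each library left out. The block was a replicate term within each line for the HGF response and its differences between lines. For untreated lines it was a replicate term shared by the lines.

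Same-numbered control and HGF libraries deviated together across genes (r = 0.295, 0.161 and 0.454 in Detroit 562, 0.376, 0.441 and 0.563 in FaDu, 0.332, 0.203 and 0.286 in SCC-9), so the numbers were taken as pairs. The pairing was less clear in Detroit 562, where control 1 with HGF 2 had r = 0.218 and control 2 with HGF 1 had 0.112. In FaDu, control 1 with HGF 2 had r = 0.139. All other libraries of unlike number within a line had negative r. Deviations were taken from the mean of each group of 3 libraries. Positive r within numbers therefore pushes r between unlike numbers below 0, and those negative values are no separate evidence of pairing. Replicates are those of the labels, and p values measure the spread between them. Members and lists were chosen with earlier results of these data known. Named genes were all members, called or role-partner genes of the lists, and the 2 nearest profiles per member. Gene lengths and overlaps were taken from GENCODE 44.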

Additional observations from a re-analysis of the deposited data

Results flagged for a closer look

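Some responses to HGF differed between the lines by a test of the difference itself. With the replicate block, the CXCL1 response of Detroit 562 was lower than that of FaDu by a log2 difference of -1.13 and lower than that of SCC-9 by -0.76, and the CXCL3 response was lower than that of SCC-9 by -0.91. The CXCL8 response of FaDu stood above that of SCC-9 by 1.32 on the log2 scale, and the response of Detroit 562 lay between these lines, at -0.77 from FaDu and 0.55 from SCC-9. None of these member differences was called without the block in the fit to all libraries. In the blocked fit, 19.1% of all tested genes were called for Detroit 562 minus FaDu and 26.9% for Detroit 562 minus SCC-9. For FaDu minus SCC-9 the share was 1.32%. Of the 9 tested members, 2, 3 and 1 were called in these contrasts, which have to be read against those shares.

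NFKBIZ, which is not a chemokine, differed without the block, with a response in Detroit 562 that was lower by -0.97 than in FaDu and by -0.70 than in SCC-9. The CXCL8 to CXCL1 ratio was higher in every HGF library than in every control library of Detroit 562 and FaDu, and lower in every HGF library of SCC-9. The log2 changes were 1.31 apart between Detroit 562 and SCC-9 and 0.96 apart between FaDu and SCC-9, and these differences were not tested.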

How the results depend on the processing

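Counts of called members changed with the test and not with the scaling. Without the block 0 members were called in each HGF comparison and in each difference between lines. With the replicate block there were 2 for Detroit 562, 3 for FaDu and 2 for SCC-9. The shares of all tested genes called there were 21.5%, 5.6% and 1.97%. The differences Detroit 562 minus FaDu, Detroit 562 minus SCC-9 and FaDu minus SCC-9 had 2, 3 and 1, against 19.1%, 26.9% and 1.32%. DESeq2 called 1 in FaDu and 1 in SCC-9 without its prior, and 1 and 2 with it, and SCC-9 fitted alone gave 2. Leaving out each library gave 0 to 1 in Detroit 562 and in Detroit 562 minus SCC-9. Between untreated lines the block was a replicate term shared by all lines, and it changed no call. CXCL2 turned sign in Detroit 562 without a filter (0.0029) and in Detroit 562 minus SCC-9 without a filter (0.0086) and with these lines fitted alone (0.0073).

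Leaving out 1 library at a time turned the sign of some values that were not called, not all of them near 0. In Detroit 562, CXCL2 ranged from -0.22 to 0.30. In FaDu, CXCL3 ranged from -0.060 to 0.51 and CCL28 from -0.19 to 0.39. In SCC-9, CXCL1 ranged from -0.25 to 0.33, CXCL2 from -0.032 to 0.018 and CCL20 from -0.39 to 0.24. For Detroit 562 minus FaDu, CXCL5 ranged from -0.027 to 0.52, CCL20 from -0.91 to 1.63 and CCL28 from -0.48 to 0.095. For Detroit 562 minus SCC-9, CXCL2 ranged from -0.22 to 0.30 and CXCL5 from -0.87 to 0.079. For FaDu minus SCC-9, CXCL10 ranged from -3.96 to 0.012 and CXCL11 from -0.87 to 0.41. Between untreated Detroit 562 and SCC-9, CCL28 ranged from -0.12 to 0.011. The log2 change of the CXCL8 to CXCL1 ratio, an alternative chosen after seeing the data, ranged from 0.79 to 1.14 for Detroit 562, from 0.47 to 0.78 for FaDu and from -0.40 to -0.21 for SCC-9. The cause of these changes was not tested. Members at a few counts per library (CX3CL1, CXCL5, and CXCL10, CXCL11 and CCL20 outside SCC-9) allow no firm statement on their change.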
